A study of Mus musculus with 7 samples.

Results

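The PI3K, AKT and mTOR signaling core was examined as 42 genes chosen by name, with earlier results of these data known. They include genes for the subunits of phosphoinositide 3-kinases (PI3Ks) and for the enzymes that make and remove their lipid products. Also included were Mboat7, which remodels phosphoinositides, and the receptor substrate Irs2. The others include AKT and its activating kinase, the 2 mTOR complexes with their upstream switch, and direct targets of AKT and mTOR. A gene was included where the platform annotation gave its symbol to a row of the deposited table, which held for 40 of the 42 genes, each with 1 row, among 19494 genes named on the array. Akt1s1 and Rps6kb1 were not analysed here. The samples were wild type CD45+CD11b+ cells sorted from the spleen 14 days after allogeneic hematopoietic cell transplantation (allo-HCT), 4 mice given a ROCK1/2-inhibitor and 3 given vehicle, with 1 Clariom S Mouse array for each mouse. All mice were BALB/cAnN recipients irradiated 2 times with 5 Gy, and all were given 5000000 bone marrow cells and 300000 T cells of C57BL/6N donors intravenously to induce acute graft-versus-host disease (aGVHD). The inhibitor Y-27632, a small molecule that blocks the kinases ROCK1 and ROCK2, was injected intraperitoneally at 8 mg/kg in 100 µl on 10 days (day 4 through day 13), and the vehicle group was injected with PBS. Ages are given in the methods only as a young adult range for the study as a whole. The gate takes myeloid cells of several types together, among them neutrophils, monocytes and macrophages. The labels name no marker that separates donor from remaining recipient cells. Mice are called R1 to R4 (inhibitor) and V2 to V4 (vehicle) after the sample labels.

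PI3Ks phosphorylate a phosphoinositide of the plasma membrane to form PIP3, which draws AKT and the kinase PDK1 to the membrane, where AKT is activated. AKT phosphorylates and restrains FOXO transcription factors, the GSK3 kinases and the TSC complex, and loss of TSC activity lets the small GTPase RHEB switch on mTOR complex 1 (mTORC1), which drives protein synthesis and limits autophagy. In neutrophils and macrophages the pathway is best known for its part in chemotaxis, the oxidative burst and survival. Much of it is regulated by phosphorylation of proteins, which an array of RNA does not measure.

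Of the 40 genes, 2 fell in inhibitor mice, Mboat7 and Akt1, and 0 rose at an adjusted p below 0.05 (limma, Benjamini-Hochberg over all 22139 transcript clusters, the probe groups that each report 1 gene). Among all transcript clusters, 2.23% were called, 1.17% lower and 1.06% higher. A difference is given throughout as log2 intensity in inhibitor mice minus log2 intensity in vehicle mice, with its standard error (SE). The median difference of the 40 genes was -0.11 (quartiles -0.50 and 0.15), with 25 genes below 0 and 15 above, against a median of 0.0012 and 49.7% below 0 over all named genes. Among the 13413 named genes at least as bright as the dimmest of the 40, the median was -0.025 and 52.8% lay below 0. In 7 genes every inhibitor mouse lay below every vehicle mouse (Mboat7, Akt1, Pik3r6, Gsk3a, Foxo3, Inpp4a and Mlst8), and in 0 genes every inhibitor mouse lay above. Over all transcript clusters such a separation was found in 7.03% for lower and 6.22% for higher values. Of the 13413 named genes at least as bright as the dimmest of the 40, 1263 were separated with lower and 906 with higher values. Of those 13413, 232 were called lower and 193 higher. With 4 and 3 arrays, the number of mice limits the precision of each value. In sorted cells of mixed type, fewer cells of a type and less RNA per cell cannot be told apart.

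**Figure D1:**
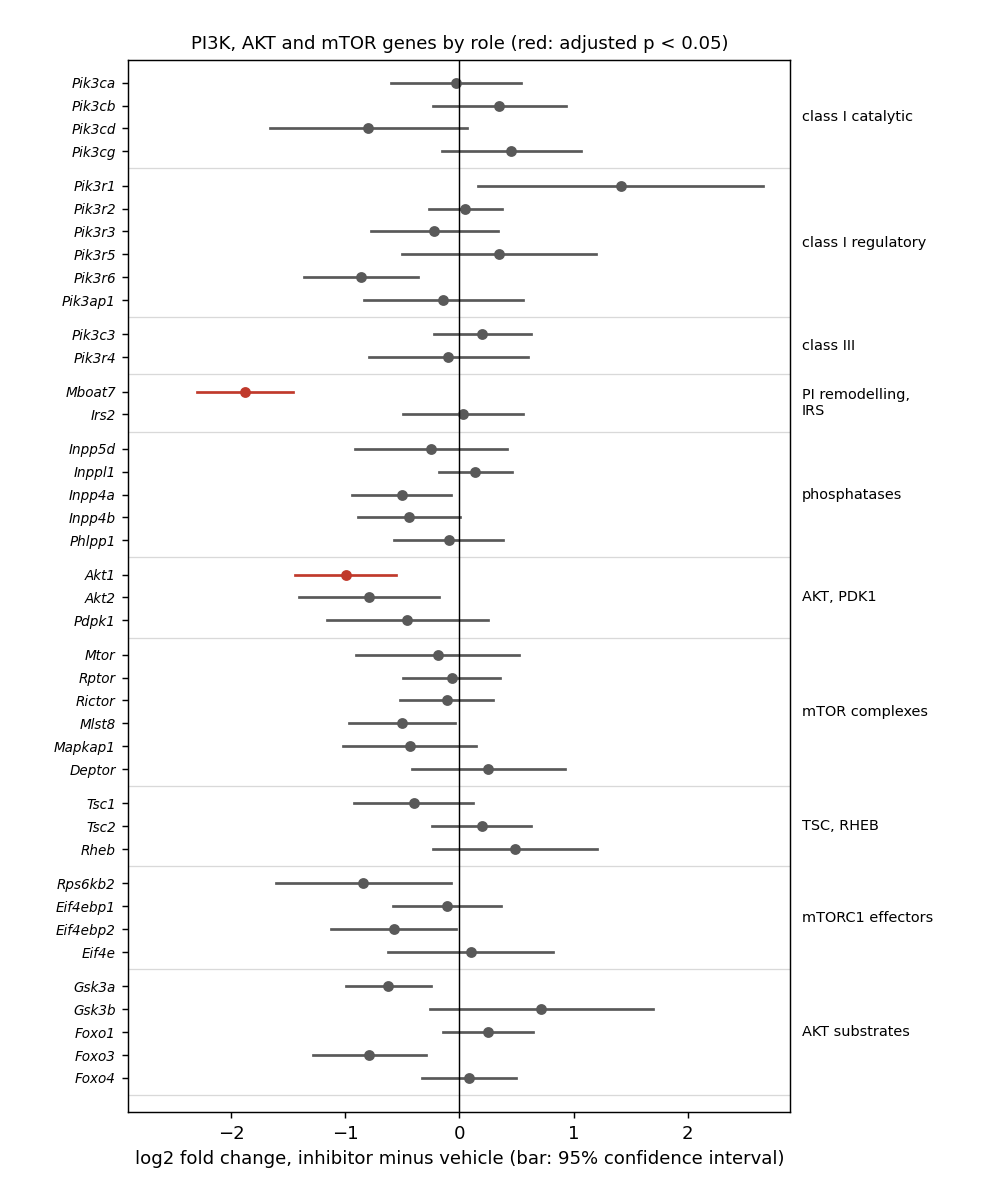
Difference in log2 intensity (inhibitor minus vehicle, x axis) of the 40 genes, grouped by role on the y axis, with points for the estimate and lines for its 95% confidence interval (limma, 4 inhibitor and 3 vehicle mice). Red marks an adjusted p below 0.05, reached by Mboat7 at -1.88 and Akt1 at -0.995.

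R1 stood apart from the other inhibitor mice over all transcript clusters. On the first principal component, which held 41% of the variance, R1 was at -1.21, R2 to R4 lay between -43.5 and -24.8, and the vehicle mice between 19.7 and 44.2. On the second component R1 (37.6) and the vehicle mouse V2 (-32.8) lay at opposite ends, with the other mice between -20.6 and 10.7. Array medians were 2.14 to 2.19 in all mice. Upper quartiles were 3.55, 3.42, 3.49 and 3.35 in R1 to R4 and 3.50, 3.50 and 3.68 in V2 to V4. Of the 40 genes, 18 had means in the lowest 75% of rows and the others lay above. The part of these array differences in the results was not tested. As R1 was the inhibitor mouse nearest to the vehicle mice on the first component, values without it are given below for some genes. Without R1 differences grew in some genes and shrank in others. For Akt2 the difference was -0.79 with all mice and -0.64 without R1, and for Eif4ebp2 -0.58 and -0.39. For Pik3cb it was 0.35 and 0.51, and for Pik3ap1 -0.14 and 0.087. When R1 was left out, 3 of the 40 genes were called lower (Mboat7, Akt1 and Pik3r6) and 2 higher (Pik3r1 and Gsk3b), where 2.80% of all transcript clusters were called lower and 1.88% higher. Groups then did not overlap for 8 genes with lower values (11.5% of all transcript clusters) and for 3 with higher values (10.3%).

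Mboat7 encodes the acyltransferase that attaches arachidonic acid to lysophosphatidylinositol and so shapes the lipid that PI3Ks use. Its log2 intensity was 2.78, 3.01, 3.17 and 2.53 in R1 to R4, and 4.75, 4.92 and 4.59 in V2 to V4. The groups were separated by more than the whole range within either of them. The means were 2.87 ± 0.28 (SD, n = 4) with inhibitor and 4.75 ± 0.17 (SD, n = 3) with vehicle, a 3.68-fold lower intensity (difference -1.88, SE 0.19, 95% confidence interval -2.30 to -1.46, limma adjusted p = 0.0148). Its p-value ranked 4 among the 22139 transcript clusters. Mboat7 is in a list chosen with earlier results of these data known, so its call is not independent evidence. The call was made without R1 (adjusted p = 0.0072), R3 (0.0290), V3 (0.0350) or V4 (0.0111), and was lost without R2 (0.0531), R4 (0.0505) or V2 (0.0686), while the difference stayed between -1.98 and -1.76 (limma).

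AKT1 is the AKT isoform expressed most broadly and a central kinase of growth and survival signaling. Akt1 was at 5.94, 5.43, 5.75 and 5.33 in R1 to R4 and at 6.53, 6.88 and 6.42 in V2 to V4. Every inhibitor mouse was below every vehicle mouse, and R1 was the inhibitor mouse nearest to the vehicle group. Akt1 fell 1.99-fold, from 6.61 ± 0.24 (SD, n = 3) to 5.61 ± 0.28 (SD, n = 4) on the log2 scale (difference -0.995, SE 0.20, 95% confidence interval -1.44 to -0.55, limma adjusted p = 0.0402). Akt1 is among the genes that the study drew from these same arrays, so its call is not independent evidence. Without R1 the adjusted p was 0.0183, whereas leaving out any other single mouse gave 0.0503 to 0.132, with differences of -1.09 to -0.86 (limma).

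**Figure D2:**
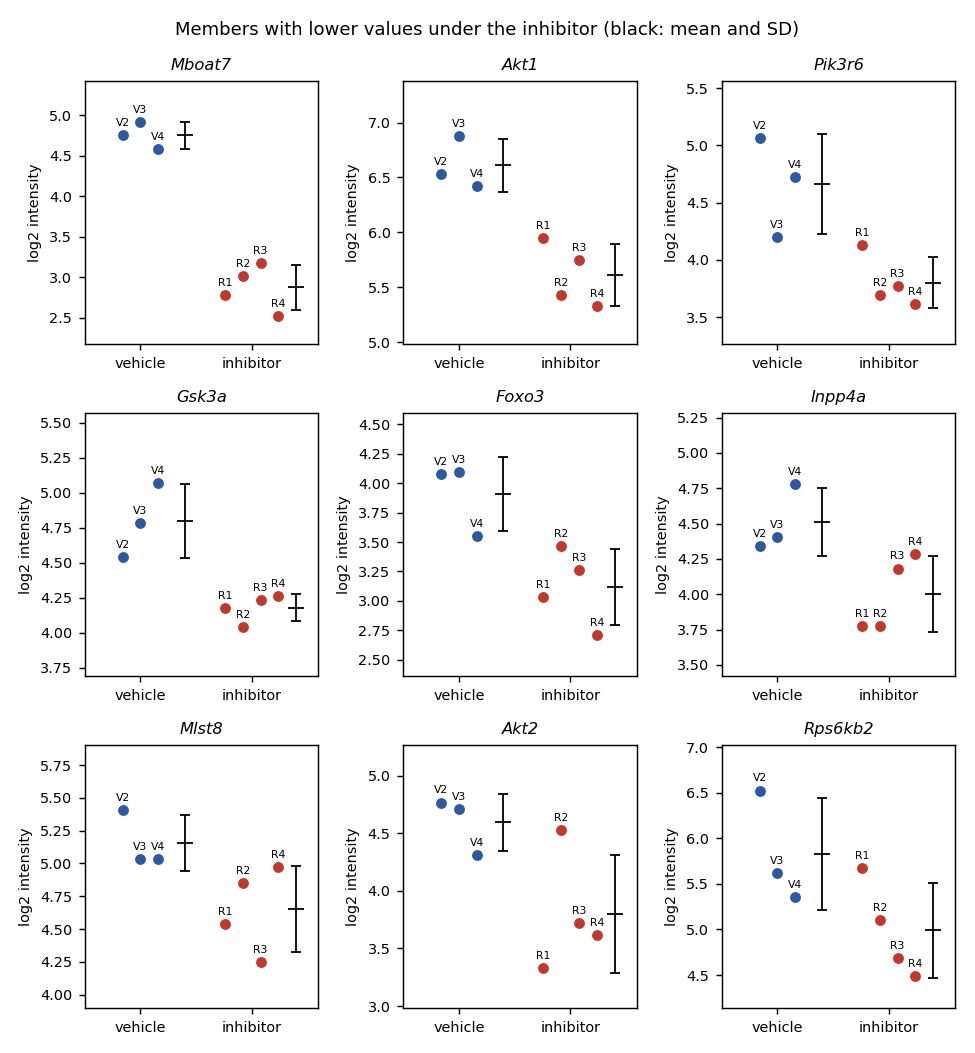
Log2 intensity (y axis) in each mouse for Mboat7, Akt1, Pik3r6, Gsk3a, Foxo3, Inpp4a, Mlst8, Akt2 and Rps6kb2, with inhibitor and vehicle mice side by side and the mean and SD in black. The groups are separate in the first 7 genes, and overlap in Akt2 (through R2) and in Rps6kb2 (through R1).

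The promoters of the 2 called genes are shown because they are the members whose RNA levels differed past the threshold. Each run is the gene's strand from 250 bases before to 50 bases after its start as listed by RefSeq for GRCm38.p6, with matches to the searched motifs in capitals, which mark a GC box (GGGCGG) in Mboat7 and a forkhead motif of FOXO factors (TGTTTAC) in Akt1, on either strand. The Mboat7 promoter lies at chr7:3692937-3693236 on the minus strand and the Akt1 promoter at chr12:112674835-112675134 on the minus strand.
Mboat7: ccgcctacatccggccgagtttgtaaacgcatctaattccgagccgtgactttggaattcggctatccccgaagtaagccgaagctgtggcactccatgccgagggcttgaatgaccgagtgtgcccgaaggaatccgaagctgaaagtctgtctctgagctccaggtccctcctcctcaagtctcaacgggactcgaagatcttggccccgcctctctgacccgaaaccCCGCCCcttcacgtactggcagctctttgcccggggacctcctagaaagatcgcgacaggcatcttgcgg
Akt1: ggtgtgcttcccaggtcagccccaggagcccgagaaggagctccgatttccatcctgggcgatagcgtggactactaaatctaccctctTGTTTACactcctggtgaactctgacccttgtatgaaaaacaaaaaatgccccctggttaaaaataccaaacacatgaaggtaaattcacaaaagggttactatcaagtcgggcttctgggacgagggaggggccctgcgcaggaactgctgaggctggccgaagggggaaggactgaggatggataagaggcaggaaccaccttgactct
The Mboat7 window held 58.3% G and C with 23 CpG dinucleotides and the Akt1 window 52.3% with 8. RefSeq gave such a window for 34 of the 40 genes, with a median of 60.8% G and C against 52.7% over all 27025 promoters. A GC box was present in 22 of the 34 (64.7%, against 35.9% of all promoters), and a TGTTTAC match in 2, Akt1 and Mapkap1 (5.88%, against 3.52%). Matches to CCAAT (32.4% against 38.0%), to an ETS motif CCGGAAG (14.7% against 9.14%), to an E box CACGTG (8.82% against 7.24%), to a cAMP response element TGACGTCA (2.94% against 1.85%) and to a PU.1 motif GAGGAAGT (5.88% against 3.25%) were counted in the same way. These are matches of letters on either strand and do not show that a factor binds.

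The class I catalytic subunits, which make PIP3, were each below the threshold. Pik3cd, encoding the leukocyte subunit p110δ, was at 4.11, 4.07, 3.58 and 3.03 in R1 to R4 and at 3.56, 4.94 and 4.98 in V2 to V4. V2 lay within the inhibitor range, and the vehicle mice spread over more than the inhibitor mice. The difference was -0.80 (SE 0.38, limma adjusted p = 0.378), with a 95% confidence interval of -1.66 to 0.066 that leaves a wide range of sizes. Pik3cg, encoding p110γ, the subunit activated by chemokine receptors, was at 6.45, 6.83, 7.16 and 7.35 in R1 to R4 and at 6.76, 5.95 and 6.77 in V2 to V4 (difference 0.45, SE 0.27). Here R1 was the only inhibitor mouse within the vehicle range, and without it the difference was 0.62 (SE 0.26, limma adjusted p = 0.253). Pik3cb (p110β) differed by 0.35 (SE 0.26) and Pik3ca (p110α) by -0.03 (SE 0.25, and -0.17 without R1), with overlapping groups.

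Among the regulatory subunits, Pik3r1 and Pik3r6 had the largest differences in opposite directions. Pik3r1 encodes p85α, which stabilises the class IA catalytic subunits and holds them inactive until a receptor is engaged. It was at 4.70, 6.37, 7.01 and 6.85 in R1 to R4 and at 4.58, 4.17 and 5.72 in V2 to V4. R2 to R4 lay above all vehicle mice, whereas R1 lay at the vehicle level. With all mice the difference was 1.41 (SE 0.56, 95% confidence interval 0.16 to 2.66, limma adjusted p = 0.258), and without R1 it was 1.92 (SE 0.37, adjusted p = 0.0248). Pik3r6, encoding p84, a partner of p110γ, was at 4.13, 3.70, 3.77 and 3.62 in R1 to R4 and at 5.06, 4.20 and 4.73 in V2 to V4. The groups did not overlap, although R1 and V3 were close. The difference was -0.86 (SE 0.22, limma adjusted p = 0.0834), and -0.97 without R1 (adjusted p = 0.0484).

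Pik3r5, encoding p101, the other partner of p110γ, was at 4.03, 4.39, 5.33 and 5.20 in R1 to R4 and at 4.15, 3.89 and 5.12 in V2 to V4 (difference 0.35, SE 0.38). Each group held both low and high mice, so the spread within groups was larger than the difference, which was 0.59 without R1 (SE 0.35). Pik3ap1 encodes BCAP, an adaptor that links Toll-like and B-cell receptors to PI3K. It was at 5.77, 5.71 and 5.78 in R2 to R4, at 4.84 in R1, and at 6.03, 5.02 and 5.95 in V2 to V4 (difference -0.14, SE 0.31). R1 and V3 were the low mice of their groups. Pik3r2 was dim, between 1.71 and 2.00 in all mice, and Pik3r3 differed by -0.22 (SE 0.25). The class III kinase Pik3c3 (VPS34), which makes the lipid needed for endosomes and autophagy, was at 2.62, 2.51, 2.16 and 2.91 in R1 to R4 and at 2.39, 2.28 and 2.38 in V2 to V4. The vehicle mice lay within the inhibitor range (difference 0.20, SE 0.19), and the groups also overlapped for its partner Pik3r4 (difference -0.10, SE 0.31).

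**Figure D3:**
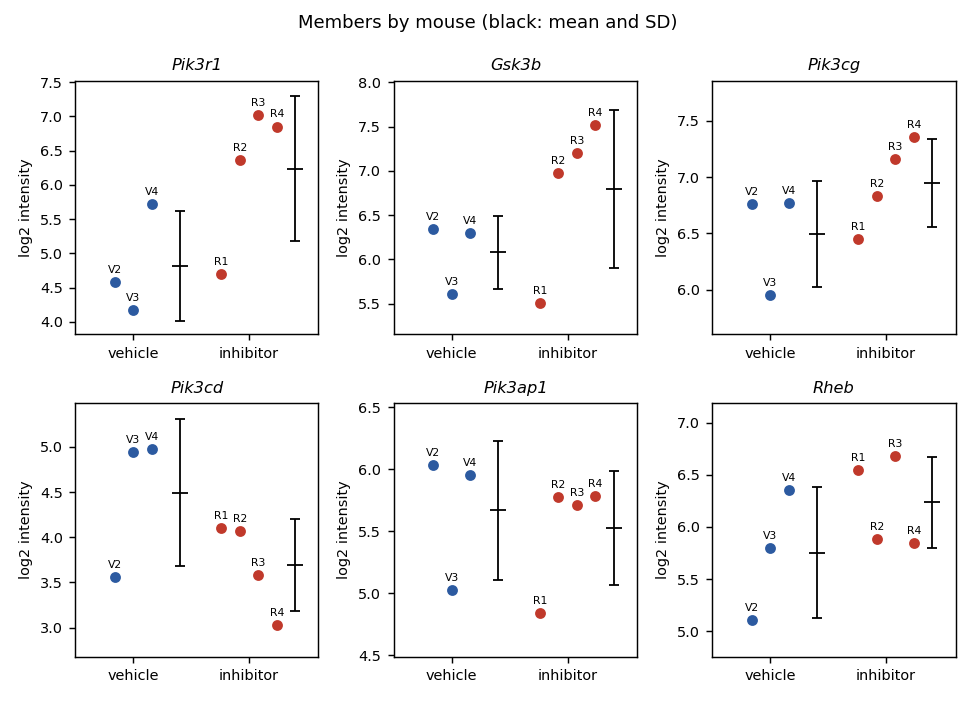
Log2 intensity (y axis) in each mouse for Pik3r1, Gsk3b, Pik3cg, Pik3cd, Pik3ap1 and Rheb, with inhibitor and vehicle mice side by side and the mean and SD in black. R1 lies at 4.70 in Pik3r1 and at 5.50 in Gsk3b, below the lowest of R2 to R4 at 6.37 and 6.97.

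The phosphatases that take phosphate from PIP3 and its derivatives, or from AKT, had differences below 0 in 4 of 5 genes, with 0 called. Inpp4a, which acts on the product of SHIP enzymes, was at 3.77, 3.77, 4.18 and 4.29 in R1 to R4 and at 4.34, 4.40 and 4.78 in V2 to V4. The groups did not overlap, with R4 just below V2 (difference -0.51, SE 0.19, limma adjusted p = 0.243). Its relative Inpp4b differed by -0.44 (SE 0.20, limma adjusted p = 0.333), and V3 lay within the inhibitor range. Inpp5d encodes SHIP1, a PIP3 phosphatase of blood cells, and was at 4.88, 5.70, 6.24 and 5.61 in R1 to R4 and at 5.97, 5.51 and 6.09 in V2 to V4. R3 was the highest of all mice and R1 the lowest, and the difference of -0.25 (SE 0.30) was smaller than that spread and was -0.0049 without R1 (SE 0.23). Inppl1 (SHIP2) was dim in all mice, and Phlpp1, which dephosphorylates AKT, differed by -0.10 (SE 0.21). The receptor substrate Irs2, which carries insulin signals to PI3K, differed by 0.03 (SE 0.23, 95% confidence interval -0.49 to 0.56).

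Downstream of PIP3, Akt2 and Pdpk1 also had lower means with inhibitor than with vehicle, without passing the test. Akt2, the isoform best known for insulin signaling, was at 3.33, 4.53, 3.72 and 3.62 in R1 to R4 and at 4.77, 4.71 and 4.31 in V2 to V4. Only R2 reached the vehicle range. The difference was -0.79 (SE 0.27, 95% confidence interval -1.40 to -0.18, limma adjusted p = 0.186). Pdpk1 encodes PDK1, the kinase that phosphorylates AKT in its activation loop, and was at 4.38, 4.88, 4.28 and 4.93 in R1 to R4 and at 5.50, 4.27 and 5.44 in V2 to V4. V3 had the lowest value of all mice, so the groups overlapped (difference -0.46, SE 0.31).

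The mTOR complexes showed differences below 0 in 5 of 6 genes, with 0 called. Mtor, the kinase of both complexes, was at 2.25, 2.96, 2.05 and 2.88 in R1 to R4 and at 2.45, 2.31 and 3.41 in V2 to V4. The groups overlapped over most of their range, and the 95% confidence interval of the difference, -0.90 to 0.52, allows changes in either direction (difference -0.19, SE 0.32). Mlst8, a subunit that both complexes contain, was at 4.54, 4.85, 4.25 and 4.98 in R1 to R4 and at 5.40, 5.03 and 5.03 in V2 to V4. All inhibitor mice lay below all vehicle mice, R4 by a narrow margin (difference -0.50, SE 0.21, limma adjusted p = 0.285). Rptor, the scaffold of mTORC1, differed by -0.07 (SE 0.19), and Rictor, the scaffold of mTORC2, by -0.11 (SE 0.18), or by -0.0052 without R1. Mapkap1, the mTORC2 subunit SIN1, differed by -0.44 (SE 0.26), and the inhibitor Deptor by 0.25 (SE 0.30).

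Of the switch upstream of mTORC1, Tsc1, which stabilises the TSC complex, was at 2.45, 1.66, 2.09 and 1.67 in R1 to R4 and at 2.59, 2.49 and 2.04 in V2 to V4. R1 and R3 reached the vehicle range, and the difference was -0.40 (SE 0.23), or -0.56 without R1. Tsc2, the GTPase-activating subunit, differed by 0.20 (SE 0.19). Rheb, the GTPase that activates mTORC1, was at 6.54, 5.88, 6.68 and 5.84 in R1 to R4 and at 5.10, 5.80 and 6.36 in V2 to V4. Each vehicle mouse was at a level of its own, and V4 lay within the inhibitor range (difference 0.48, SE 0.32, limma adjusted p = 0.565). Among mTORC1 effectors, Rps6kb2 encodes S6 kinase 2, which phosphorylates ribosomal protein S6. Rps6kb2 was at 5.67, 5.11, 4.69 and 4.49 in R1 to R4 and at 6.52, 5.62 and 5.35 in V2 to V4. R1 was the only inhibitor mouse within the vehicle range, and the groups did not overlap without it. The difference was -0.84 with all mice (SE 0.34, limma adjusted p = 0.272) and -1.07 without R1 (SE 0.31, adjusted p = 0.0921). Eif4ebp2, a repressor of cap-dependent translation that mTORC1 inactivates, was at 1.97, 2.79, 2.38 and 2.98 in R1 to R4 and at 3.04, 3.31 and 2.97 in V2 to V4. R4 and V4 were level, and the other inhibitor mice were below all vehicle mice (difference -0.58, SE 0.24, limma adjusted p = 0.296). Its relative Eif4ebp1 differed by -0.11 (SE 0.21) and the cap-binding protein Eif4e by 0.10 (SE 0.32).

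Of the 5 AKT substrates 0 were called, with differences below 0 in 2 and above 0 in 3. Gsk3a, a kinase that restrains glycogen synthesis until AKT phosphorylates it, was at 4.18, 4.04, 4.23 and 4.26 in R1 to R4 and at 4.54, 4.79 and 5.07 in V2 to V4. The inhibitor mice were close to each other and all below the vehicle mice (difference -0.62, SE 0.16, limma adjusted p = 0.0875). Its relative Gsk3b was at 5.50, 6.97, 7.21 and 7.51 in R1 to R4 and at 6.34, 5.61 and 6.30 in V2 to V4. R2 to R4 lay above all vehicle mice and R1 below them. The difference was 0.72 with all mice (SE 0.43, limma adjusted p = 0.516) and 1.15 without R1 (SE 0.24, adjusted p = 0.0342).

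Foxo3, a transcription factor that promotes quiescence and is kept out of the nucleus by AKT, was at 3.03, 3.47, 3.26 and 2.71 in R1 to R4 and at 4.08, 4.10 and 3.55 in V2 to V4. The groups did not overlap, with R2 just below V4 (difference -0.79, SE 0.22, limma adjusted p = 0.104). Foxo1 was at 2.28, 2.198, 2.25 and 2.00 in R1 to R4 and at 2.196, 1.62 and 1.98 in V2 to V4, where R1 to R3 and V2 were level and V3 was lowest (difference 0.25, SE 0.17). Foxo4 differed by 0.08 (SE 0.18). Foxo1, Foxo4, Tsc1, Pik3r2 and Inppl1 had mean intensities below the median of all transcript clusters, where arrays compress differences.

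**Figure D4:**
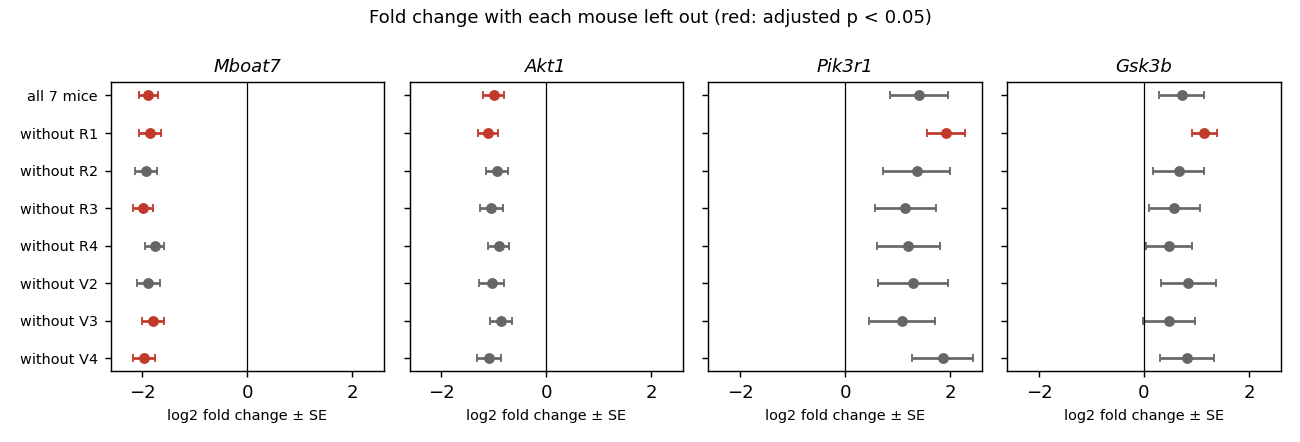
Difference in log2 intensity (inhibitor minus vehicle, x axis) with its SE for Mboat7, Akt1, Pik3r1 and Gsk3b, with all mice and with each mouse left out in turn (y axis). Red marks a limma adjusted p below 0.05, which Pik3r1 (1.92) and Gsk3b (1.15) reached without R1 and in no other setting shown.

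Within each array, relatives were set against each other as a difference of log2 intensities, and this difference was compared between the groups for 12 pairs by an exact permutation test over the 35 arrangements of the arrays, two-sided, with p-values adjusted over the 12 pairs. In no pair was the adjusted p below 0.343. The smallest p that the 35 arrangements allow is 0.0286, which for a single pair among 12 stays above the threshold after adjustment. The adjusted p-values therefore cannot decide whether any single pair differed between the groups, and do not show that the pairs were unchanged. Foxo1 minus Foxo3 was -0.76, -1.27, -1.01 and -0.71 in R1 to R4 and -1.88, -2.48 and -1.57 in V2 to V4. The groups were separate, at the smallest p that the design allows (difference of 1.04 between groups, SE 0.27, exact permutation p = 0.0286, adjusted p = 0.343). Gsk3a minus Gsk3b was -1.32, -2.93, -2.97 and -3.26 in R1 to R4 and -1.80, -0.82 and -1.23 in V2 to V4. R1 lay among the vehicle mice and R2 to R4 below them (difference of -1.34 between groups, SE 0.57, exact permutation p = 0.0857). For Pik3r5 minus Pik3r6 the groups differed by 1.21 (SE 0.57, exact permutation p = 0.114). For Akt1 minus Akt2 they differed by -0.20 (SE 0.44, exact permutation p = 0.686), which does not show that the isoforms changed alike.

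Read by mouse, the 40 genes had a median deviation from the vehicle mean of -0.33 in R1, -0.057 in R2, -0.17 in R3 and -0.19 in R4, and of 0.11 in V2, -0.19 in V3 and 0.11 in V4. V3 was thus as low as the inhibitor mice R3 and R4, and R1 was lowest. R1 had the lowest value of the 7 mice in 10 of the 40 genes (25%, against 12.7% of all named genes), V3 in 10 (25%, against 14.95%) and V4 in 0 (against 10.7%). V2 had the highest value in 10 genes (25%, against 17.0% of all named genes), R3 in 9 (22.5%, against 14.4%) and V4 in 8 (20%, against 11.9%). The named genes compared were dimmer, with a median intensity of 2.18 against 3.86 for the 40 genes. V4 also had the highest upper quartile of the arrays (3.68), and the part of such array differences in these counts was not tested.

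**Figure D5:**
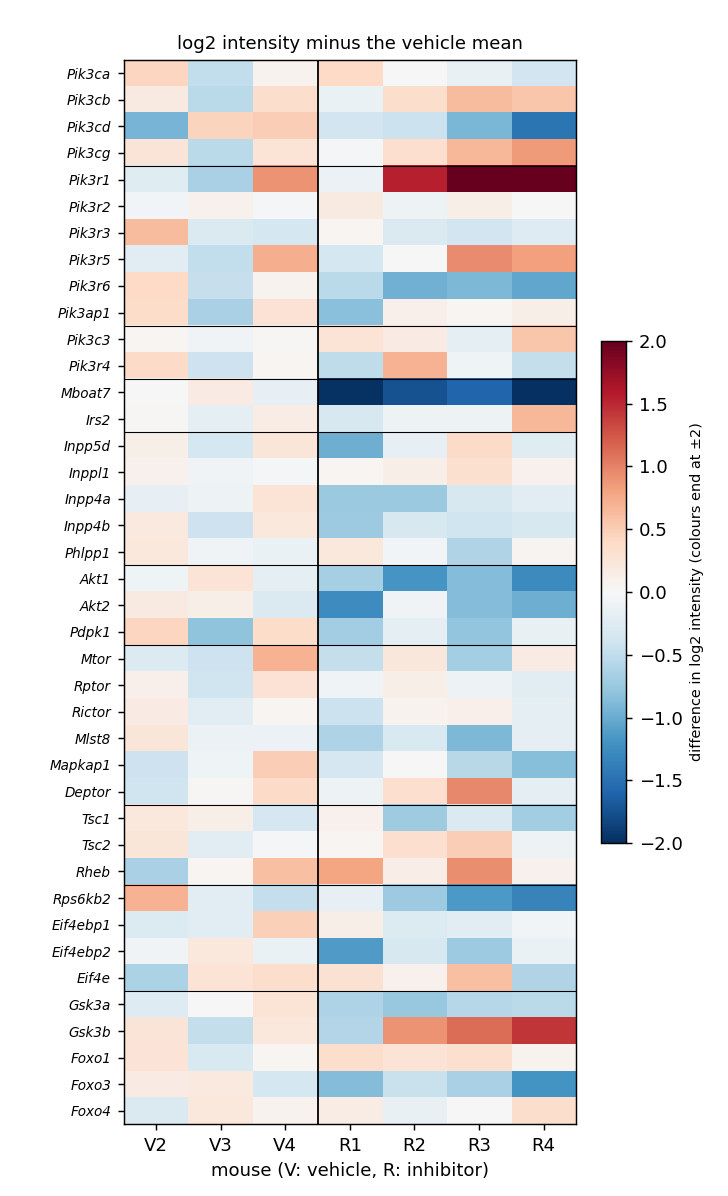
Log2 intensity minus the vehicle mean (colour, ending at -2 and 2) of the 40 genes (rows, by role) in each of the 7 mice (columns). Mboat7 and Akt1 are below 0 in all 4 inhibitor mice, and Pik3r1 and Gsk3b are above 0 in R2 to R4 and below 0 in R1.

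The neighbourhood of the pathway was read from 7 lists with 142 measured genes, of which 3 fell and 0 rose (limma adjusted p below 0.05), with a median difference of -0.089, where 1.17% of all transcript clusters were called lower and 1.06% higher. Mknk2, a kinase that phosphorylates eIF4E and which the study also drew from these arrays, was at 3.74, 3.55, 4.11 and 3.54 in R1 to R4 and at 5.11, 4.81 and 4.74 in V2 to V4 (difference -1.15, SE 0.19, limma adjusted p = 0.0234). Shc1, an adaptor that carries receptor signals to RAS and PI3K, was at 5.09, 4.21, 4.48 and 4.27 in R1 to R4 and at 5.48, 5.55 and 6.31 in V2 to V4 (difference -1.27, SE 0.27, limma adjusted p = 0.0480). Prkab1, a regulatory subunit of the energy sensor AMPK, was at 3.82, 3.56, 3.42 and 3.31 in R1 to R4 and at 4.32, 4.50 and 4.32 in V2 to V4 (difference -0.85, SE 0.16, limma adjusted p = 0.0376). In these genes the groups did not overlap.

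Mknk2 was the 1 called of 20 genes in a list of other AGC kinases and AKT partners. That list also holds kinases and factors of translation, Mknk2 among them. Shc1 was 1 of 18 receptors and adaptors that recruit PI3K, and Prkab1 1 of 15 AMPK and stress inputs to TSC. Amino acid sensing upstream of mTORC1 (29 genes), other phosphoinositide kinases and phosphatases (30 genes), autophagy initiation (14 genes) and FOXO target genes (16 genes) had 0 called genes. The median difference of the FOXO target genes was -0.088, with 10 below 0 and 6 above, and that of the amino acid sensing genes was 0.053, with 14 below 0 and 15 above. Rock1, the AGC kinase that Y-27632 blocks, was at 8.01, 8.92, 9.25 and 9.21 in R1 to R4 and at 7.59, 6.82 and 7.84 in V2 to V4, without overlap (difference 1.43, SE 0.34, limma adjusted p = 0.0640).

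Cell type markers were read beside these values. The gate markers Itgam and Ptprc were bright in all mice, with means of 8.87 to 9.39 in inhibitor and 8.82 to 9.81 in vehicle mice, and the lists for T cells, B cells and NK cells had means below 2.30 with 0 genes called. The macrophage list was also dim, with means of 2.40 to 2.62 in inhibitor and 2.57 to 2.67 in vehicle mice and 0 of 13 genes called, although the gate admits these cells. In the dendritic cell list, means were 2.73 to 3.02 in inhibitor and 2.86 to 2.98 in vehicle mice, with 0 of 11 genes called. Primary granule genes of neutrophil precursors, 4 of 8 called lower, had means of 4.95 to 6.07 in inhibitor and 6.38 to 6.79 in vehicle mice. Secondary granule genes, 3 of 13 called lower, had means of 9.82 to 10.1 and 10.4 to 10.6. Monocyte genes, 3 of 15 called higher, had means of 5.62 to 5.80 and 5.02 to 5.53, and mature neutrophil genes, 3 called higher and 1 lower of 16, had means of 7.93 to 8.38 and 7.76 to 8.10. In the eosinophil list and the basophil and mast cell list 0 genes were called and the groups overlapped. The 2 granule lists and the monocyte list separated the groups without overlap, as Mboat7 and Akt1 did, with R1 nearest to the vehicle mice in the primary granule list, and their part in the results was not tested. Ribosomal protein genes, read for RNA quality, had means of 7.92 to 8.68 in inhibitor and 7.76 to 8.37 in vehicle mice. R1 (8.68) and V3 (8.37) were the highest, the mice in which the PI3K, AKT and mTOR genes were most often lowest, and the part of RNA quality in that pattern was not tested.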

How the data were processed

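RNA of sorted spleen cells was hybridised to Clariom S Mouse arrays, 1 for each of 7 mice. The deposited values are log2 intensities per gene, which the authors obtained with RMA (Robust Multi-Array Average, a background correction followed by quantile normalization). Per the submitters' processing notes, RMA was run in oligo, with no version given, and the genome build of the array annotation was not given in the sources used here. Its quantile normalization draws arrays toward a common distribution, so a shift shared by all genes cannot be read from these values. The deposited values per gene still differed in distribution, with upper quartiles from 3.35 (R4) to 3.68 (V4). The methods name a miRNeasy kit and the labels a PicoPure kit, and 1 label field describes reticular cells, whose genes Cxcl12 (1.82 to 2.58) and Lepr (1.45 to 1.69) were dim in all mice.

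Of 22203 rows, 64 with other identifiers were left out and 22139 transcript clusters tested. The platform annotation gave 1 symbol to 19572 rows, several to 0 and none to 2631; all 19572 were matched by Entrez ID to RefSeq genes, which changed 0. The brightest row stood for each of 33 symbols with several rows. The 2 groups were contrasted by lmFit and eBayes of limma 3.58.1 (R 4.3.3, two-sided, no covariates), tested on simulated data, with a Benjamini-Hochberg threshold of 0.05. Promoters were RefSeq windows of GRCm38.p6, 250 bases before to 50 after the most upstream start (11 of the genes had several). Other software was statmod 1.5.0 for robust fits and, for promoters and plots, pandas 2.3.3 and matplotlib 3.10.9 under Python 3.11.15.

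The genes and lists were chosen with earlier results of these data known. All 40 genes were described, with values by mouse for those called or without overlap and otherwise for the smallest p of each role (further genes were given by mouse after their values were seen); of the lists, called genes were named, and Rock1 as the drug's target. Alternatives were a trended and robust variance, array weights, 3 other scalings, other sets of rows, a block for the replicate number, and omission of 1 mouse at a time. Replicates are separate mice.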

Additional observations from a re-analysis of the deposited data

Results flagged for a closer look

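In the inhibitor group, Pik3ap1 had 1 mouse far from the others: R1 was at 4.84 and R2 to R4 between 5.71 and 5.78, a gap of 0.92 of the group's range, above Dixon's 95% critical value for 4 samples. Chance marks about 1 in 20 groups, and 40 genes were examined in this way. The vehicle mouse V3 was at 5.02, between R1 and the other inhibitor mice.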

How the results depend on the processing

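The number of the 40 genes called lower, 2 with all mice, was 1 with a trended and robust variance (Akt1 at adjusted p = 0.0641, limma) and 0 to 3 when single mice were left out. The number called higher, 0 with all mice, was 2 with the replicate block and 0 to 2 with single mice left out. Over all transcript clusters, 494 calls became 964 with the replicate block and 2 to 1035 with single mice left out, at most 34 without R2, R3, R4, V2 or V3, 534 without V4 and 1035 without R1. The block, which drops R1 because no vehicle mouse has its number, called Mboat7, Akt1 and Rps6kb2 lower and Pik3r1 and Gsk3b higher. Correlations were -0.128 to 0.0962 between same-numbered mice and -0.066 to 0.148 between others. So few pairs cannot decide whether the numbers pair the mice, and the sample labels do not say that they do. The median difference of the 40 genes was -0.29 to -0.040 with single mice left out, -0.29 without V3. With all mice it was -0.11, and -0.078 after quantile normalization of the deposited values. Signs turned in small differences that were not called: Pik3ca with array weights (0.0092), cyclic loess (0.017) and quantile normalization (0.014), Pik3r4 with array weights (0.0064) and the replicate block (0.042), Pik3ap1 with the block (0.087), Phlpp1 with cyclic loess (0.0099), and Eif4ebp1 with cyclic loess (0.019) and quantile normalization (0.0075). With single mice left out, differences turned within ranges of -0.22 to 0.33 for Eif4e, -0.24 to 0.13 for Eif4ebp1, -0.059 to 0.19 for Foxo4, -0.18 to 0.15 for Irs2, -0.40 to 0.15 for Mtor, -0.20 to 0.074 for Phlpp1, -0.47 to 0.087 for Pik3ap1, -0.28 to 0.18 for Pik3ca, -0.40 to 0.10 for Pik3r3, -0.36 to 0.092 for Pik3r4 and -0.27 to 0.077 for Rptor, and for the pairs Akt1 minus Akt2 (-0.47 to 0.10), Inpp4a minus Inpp4b (-0.24 to 0.092) and Rptor minus Rictor (-0.059 to 0.17). The causes were not tested. No gene of the 40 had another row to use instead.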
